A study of Mus musculus with 4 samples.

Results

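The SoxB and SoxC genes are the Sox transcription factors that act in neural precursors and young neurons, and all 8 of them were measured among the 21690 features of the deposited tables. They were chosen by gene symbol as the SoxB1 genes Sox1, Sox2 and Sox3, the SoxB2 genes Sox14 and Sox21, and the SoxC genes Sox4, Sox11 and Sox12. RNA came from neural precursors derived from A2lox mouse embryonic stem cells that carry a doxycycline-inducible knockdown of Geminin, a small nucleoprotein that restrains replication licensing. The knockdown group holds 3 libraries from independent experiments in N2B27, a serum-free neural medium, with 500 ng doxycycline given on day 3 and harvest on day 5. The control group is 1 library of the same engineered cells, harvested on day 5 without doxycycline. Every group thus carries the knockdown construct, and no cells with doxycycline but without the construct were analysed here, so doxycycline and Geminin loss cannot be told apart. Per the labels' protocols, the line and clones derived from it were grown on mouse embryonic fibroblast feeders before neural conversion.

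Sox proteins bind DNA through a shared HMG box and usually act with a partner factor on the same enhancer. SoxB1 proteins are activators that hold neural cells in the progenitor state, and Sox2 is also a core factor of pluripotent cells, where it works with Oct4 (Pou5f1). SoxB2 proteins are repressors that oppose SoxB1 in neural progenitors, and SoxC proteins act later, on the genes of newly born neurons. The question the design poses for this family is whether its levels change when Geminin is reduced in the last days of neural conversion.

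None of the 8 genes met the study's rule for a change, and 7 of them had enough tests to meet it. Of all 14477 features with enough tests, 2.88% met the rule, so the lack of calls is no trait of this family. Of the 7 Sox genes that were clearly expressed, 5 differed most from the control in knockdown library 2. There Sox2, Sox3, Sox4 and Sox11 stood at 146% to 156% of the control, while Sox1 stood at 66.3%. In knockdown library 1 the same 5 genes lay between 80.8% and 104% of the control, and in knockdown library 3 between 76.2% and 117%. Sox21 and Sox12 lay between 75.9% and 103% of the control in every knockdown library and were nearest to it in library 2, and Sox14 was at the limit of detection.

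The kinship of the 8 genes shows in their coding DNA. The 60 bases below are the stretch of the Sox2 transcript that has the closest counterpart in the other 7 transcripts, found by ungapped matching in GENCODE M21 (GRCm38), and they lie at the start of the HMG box. Capitals mark bases that differ from Sox2.
Sox2: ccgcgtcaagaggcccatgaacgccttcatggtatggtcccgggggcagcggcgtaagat
Sox1: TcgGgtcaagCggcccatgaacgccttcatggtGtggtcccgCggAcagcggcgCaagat
Sox3: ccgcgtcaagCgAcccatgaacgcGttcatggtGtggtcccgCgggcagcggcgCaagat
Sox14: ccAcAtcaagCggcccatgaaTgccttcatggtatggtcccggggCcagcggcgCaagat
Sox21: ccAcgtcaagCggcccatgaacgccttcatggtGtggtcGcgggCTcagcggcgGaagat
Sox4: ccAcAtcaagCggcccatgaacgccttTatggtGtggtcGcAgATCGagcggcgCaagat
Sox11: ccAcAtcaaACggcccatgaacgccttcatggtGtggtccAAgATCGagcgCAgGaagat
Sox12: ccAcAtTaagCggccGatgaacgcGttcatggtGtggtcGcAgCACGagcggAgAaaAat
Sox1 and Sox21 differed from Sox2 at 7 of the 60 bases, and Sox3 and Sox14 at 6. The SoxC genes differed more, with 12 bases in Sox4, 14 in Sox11 and 16 in Sox12. The stretch lies on chromosome 3 from 34650538 to 34650597 in Sox2. Each of the 8 transcripts is a single exon. Such likeness bears on how reads are assigned. Over the 28 pairs of transcripts the longest run of identical bases was between 13 and 48 bases, with a median of 24. It was 48 between Sox4 and Sox11 and 45 between Sox1 and Sox3. The read length is not given in the sources used here, so how many reads could fit both genes of a pair is unknown.

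Promoters were matched in RefSeq (GRCm38.p6) for 7 of the 8 genes, all but Sox3. Shown here, 5′ to 3′, are the promoters of Sox2, Sox4 and Sox11, which were high together in knockdown library 2, and of Sox1, which was low there. Each holds 250 bases before the transcription start and 50 after it. Capitals mark the CCAAT box (CCAAT, written ATTGG where it lies on the opposite strand) and the octamer ATGCAAAT, the site of POU factors.
Sox2 promoter, chr3:34649745-34650044, plus strand: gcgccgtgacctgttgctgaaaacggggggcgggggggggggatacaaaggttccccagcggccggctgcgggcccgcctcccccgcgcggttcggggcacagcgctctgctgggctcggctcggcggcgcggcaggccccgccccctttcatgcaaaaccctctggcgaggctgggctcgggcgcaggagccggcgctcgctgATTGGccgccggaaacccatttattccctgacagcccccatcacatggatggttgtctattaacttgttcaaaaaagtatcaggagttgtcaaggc
Sox4 promoter, chr13:28953650-28953949, minus strand: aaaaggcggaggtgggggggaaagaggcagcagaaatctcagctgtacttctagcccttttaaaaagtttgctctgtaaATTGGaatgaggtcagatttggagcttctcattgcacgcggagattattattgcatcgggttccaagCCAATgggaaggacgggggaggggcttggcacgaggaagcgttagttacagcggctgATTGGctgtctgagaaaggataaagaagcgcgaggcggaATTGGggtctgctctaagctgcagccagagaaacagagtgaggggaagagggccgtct
Sox11 promoter, chr12:27342669-27342968, minus strand: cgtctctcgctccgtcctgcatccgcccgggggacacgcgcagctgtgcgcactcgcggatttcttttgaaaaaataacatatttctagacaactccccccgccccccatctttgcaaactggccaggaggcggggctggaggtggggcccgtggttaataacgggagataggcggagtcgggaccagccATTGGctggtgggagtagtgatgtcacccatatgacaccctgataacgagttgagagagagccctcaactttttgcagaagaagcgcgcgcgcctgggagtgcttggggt
Sox1 promoter, chr8:12395269-12395568, plus strand: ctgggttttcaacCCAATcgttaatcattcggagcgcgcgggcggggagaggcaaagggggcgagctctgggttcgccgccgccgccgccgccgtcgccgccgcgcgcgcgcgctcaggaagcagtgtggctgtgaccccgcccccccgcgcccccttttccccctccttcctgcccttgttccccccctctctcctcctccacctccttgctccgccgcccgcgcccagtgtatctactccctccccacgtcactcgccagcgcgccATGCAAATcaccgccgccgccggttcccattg
On both strands, 5 motifs were searched: the octamer, the SOX site in a form with AACAAAG, the SOX site in another form with AACAATG, the CCAAT box and the TATA box (TATAAA). Of the 7 promoters, 6 held a CCAAT box, all but that of Sox21, against 37.4% of all 32851 promoters of the same length. Sox4 held 4 of them and Sox2 had 1, at -46 to -42 relative to the start. The octamer was found in Sox1, at 18 to 25 bases after the start, and in Sox12, against 1.74% of all promoters. Neither form of the SOX site nor the TATA box was found in the 7 windows, against 5.85%, 3.78% and 13.6% of all promoters. At such shares 7 windows can easily hold none, so no trait of the family is read from this. The 7 windows held between 52.0% and 76.7% G and C, against a median of 52.7% over all promoters. The part of base content in these matches was not tested. Matches are a description of these letters and not evidence of binding.

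Gmnn, which encodes Geminin, had 27.0, 65.9 and 27.9 FPKM in knockdown libraries 1, 2 and 3, against 113 in the control, or 24.0%, 58.4% and 24.7% of it. The authors' deposited tables marked the fall in libraries 1 and 3, and in library 2 the q-value was 0.0722. Knockdown library 2, where Sox1, Sox2, Sox3, Sox4 and Sox11 differed most from the control, thus kept the most Gmnn RNA. The depth of libraries 1, 2 and 3 relative to the control was 1.00, 1.15 and 0.972, read from the steps between low values, and absolute depth is unknown. Over the 11968 features fitted, the median log2 ratio to the control was -0.02, 0.03 and 0.01, so no library was shifted as a whole by more than 0.1. All 12 markers of the labelled cell type, neural precursors, were detected in every library. By the study's rule Vim rose and 11 were not called. The median log2 ratio of the 12 was 0.06, 0.36 and 0.23 in knockdown libraries 1, 2 and 3. Single markers went both ways. Hes5, a target of Notch in progenitors, had 6.28, 27.6 and 16.1 FPKM against 14.3 in the control, with a mark for the lower level in library 1. Prom1 had 47.3, 53.1 and 37.4 FPKM against 39.3, with a mark for the higher level in library 1. Nes had 106, 125 and 113 FPKM against 100.5, and Pax6 had 57.6, 75.6 and 48.8 FPKM against 55.8. In bulk RNA, fewer cells that make a transcript and less transcript per cell cannot be told apart, here and in all that follows.

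The levels are FPKM, fragments scaled to transcript length and to the size of the library, as the authors deposited them. The study's rule calls a feature that Cuffdiff marked as significant in 2 or more of the 3 deposited tables, with every mark in 1 direction. By this rule 0 of the 8 Sox genes were called, of which 7 could be called, against 2.88% of the 14477 features with enough tests. With limma on log2(FPKM + 1), 0 of the 7 genes in the fit passed the threshold and 0 had an unadjusted p under 0.05. Over all fitted features limma called 0.0251% higher and 0.1% lower, and 1.27% had an unadjusted p under 0.05. The mark itself stood on 0 of the 7 in library 1 (2.43% of all tested features), on 1 in library 2 (5.24%) and on 0 in library 3 (4.62%). Since the control is 1 library, the smallest p of an exact permutation test would be 0.25 one-sided and 0.5 two-sided, and no such test is given.

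**Figure D1:**
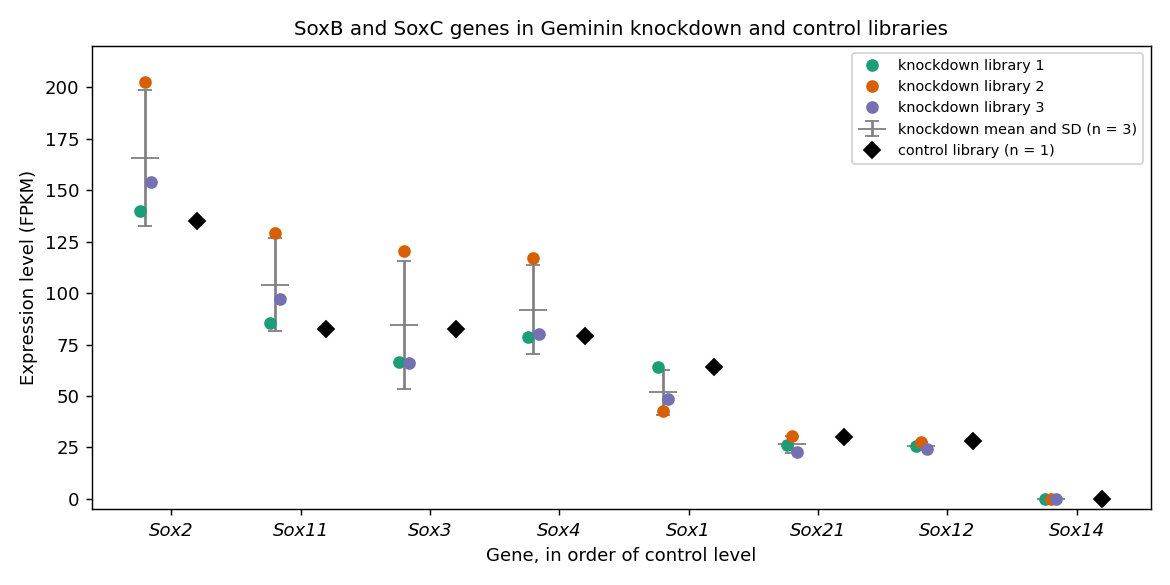
Expression level in FPKM of each SoxB and SoxC gene in the 3 knockdown libraries (circles, with their mean and SD) and the 1 control library (diamonds). Knockdown library 2 is the highest point for Sox2, Sox11, Sox3 and Sox4 and the lowest for Sox1, and Sox14 lies at 0 on this scale.

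Sox2 was the most abundant member in all 4 libraries. It had 140, 203 and 154 FPKM in knockdown libraries 1, 2 and 3, against 135 in the control. All 3 knockdown libraries were above the control, library 1 by the least and library 2 by the most. The mean was 165 ± 33.0 FPKM (SD, n = 3), and 96.5% of all features had a level at or below that of Sox2 in the control. The difference was not past the limma threshold (log2 ratio 0.28, standard error 0.24, adjusted p = 0.999), and its 95% interval ran from -0.36 to 0.91. With 1 library left out, the log2 ratio lay between 0.12 (without library 2) and 0.39 (without library 1). The authors' deposited tables marked Sox2 in none of the 3 comparisons, with a q-value of 0.111 in library 2. Sox2 lies at chr3:34459303-34576915 in the files (mm9), a span of 117613 bases that is listed with the same ends for Sox2ot, the long noncoding RNA whose gene surrounds Sox2. Sox2ot had 9.88, 13.3 and 6.04 FPKM in the knockdown libraries against 10.4 in the control. Sox2ot was thus below the control in library 3, where Sox2 was above it, and reads in bases shared by both cannot be told apart. A microRNA feature in the same span, Mir1897, is listed at 0 in knockdown library 1, at 273 and 377 FPKM in libraries 2 and 3, and at 329 FPKM in the control, and no table marked it. Its control value ran from 318 to 344 FPKM over the tables. The deposited test statistics imply standard errors of 1.70 and 1.61 for its log2 ratio in libraries 2 and 3. These values are thus very imprecise, and no change is drawn from them.

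Sox3, the X-linked SoxB1 gene of neural progenitors, lay on both sides of the control. It had 66.6, 120 and 66.2 FPKM in knockdown libraries 1, 2 and 3, against 82.5 in the control. Library 2 was thus above the control and libraries 1 and 3 below it by a like amount. In library 1 it was the member nearest to a mark, with a q-value of 0.0539 in the authors' deposited table at 80.8% of the control. The knockdown mean was 84.3 ± 31.1 FPKM (SD, n = 3), the widest relative spread among the 7 members above the limit of detection. By limma the log2 ratio was -0.03 with a standard error of 0.39 (adjusted p = 0.999), and it was -0.31 without library 2, against 0.11 and 0.12 when library 1 or library 3 was left out. Sox3 lies at chrX:58144541-58146605, and no other listed feature overlaps it.

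Sox1, one of the earliest markers of neuroectoderm, was the SoxB1 gene with no library above the control. It had 63.8, 42.5 and 48.8 FPKM in knockdown libraries 1, 2 and 3, against 64.0 in the control. Library 1 was at the control level, while libraries 2 and 3 were at 66.3% and 76.2% of it. The authors' deposited tables gave q-values of 0.104 and 0.381 in libraries 2 and 3 and marked neither. By limma the log2 ratio was -0.32 with a standard error of 0.25 (adjusted p = 0.999). It was -0.19 without library 2 and -0.29 without library 3. Without library 1 it was -0.48, with an unadjusted p of 0.0345 and an adjusted p of 0.449 in limma. Sox1 is listed at chr8:12385771-12436731, a span shared with Gm5607, an older symbol of the Sox1 overlapping transcript Sox1ot in RefSeq. Gm5607 had 1.19, 1.50 and 1.10 FPKM in the knockdown libraries against 1.54 in the control.

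In knockdown library 2 the SoxB1 genes thus lay on both sides of the control, Sox2 and Sox3 above it and Sox1 below. The ratio of Sox1 to Sox2 FPKM was 0.457, 0.210 and 0.317 in knockdown libraries 1, 2 and 3, against 0.475 in the control. All 3 knockdown ratios were below that of the control, in library 1 by little. On the log2 scale the ratio changed by -0.06, -1.18 and -0.59, with combined standard errors of 0.13, 0.31 and 0.28 from the deposited test statistics, if the errors of both genes are independent. The mean was -0.61 ± 0.56 (SD, n = 3), so the spread between knockdown libraries was nearly as large as the change. A ratio of 2 genes in 1 library does not depend on how the library was scaled. Sox1 made up 23.6%, 11.6% and 18.1% of the summed SoxB1 level in the knockdown libraries and 22.8% in the control, and Sox2 made up 51.7%, 55.5% and 57.3% against 47.9%. Sox3 over Sox2 was 0.477, 0.593 and 0.430 against 0.612. These ratios, 7 in all, were chosen after the levels had been seen and carry no test.

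**Figure D2:**
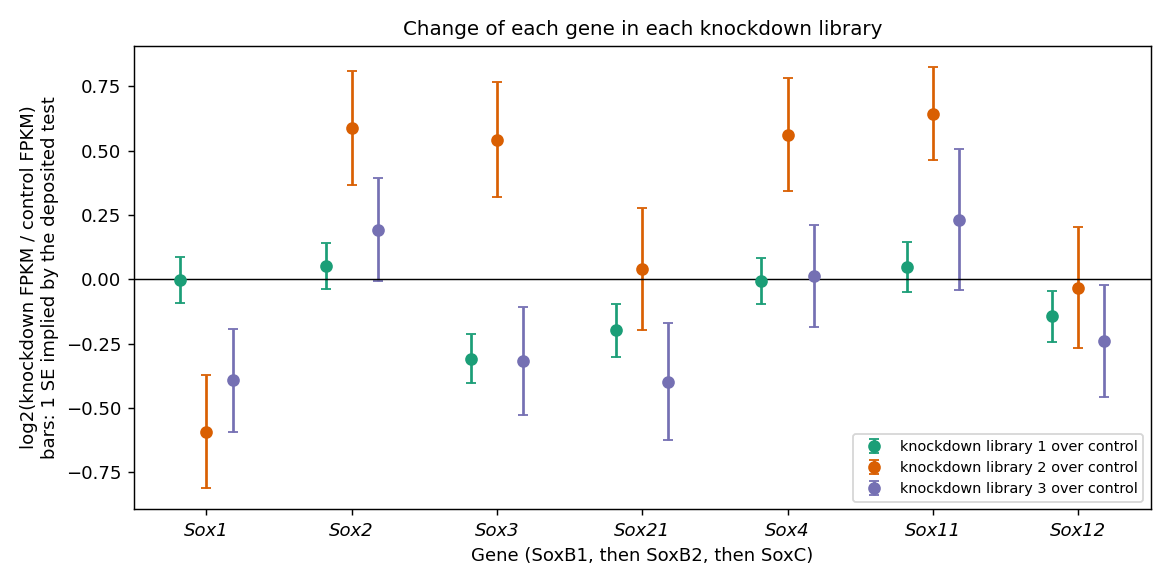
The log2 ratio of knockdown over control FPKM for each of 7 genes in each knockdown library, with bars of 1 standard error as the deposited Cuffdiff statistic implies it. In library 2, Sox2, Sox3, Sox4 and Sox11 lie between 0.54 and 0.64 and Sox1 at -0.59, and the bars of library 1 are the shortest.

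Of the repressive SoxB2 genes, Sox21, which promotes neuronal differentiation in the chick, was clearly expressed. It had 26.1, 30.7 and 22.7 FPKM in knockdown libraries 1, 2 and 3, against 29.9 in the control. Libraries 1 and 3 were below the control and library 2 was at its level, and the mean was 26.5 ± 4.04 FPKM (SD, n = 3). By limma the log2 ratio was -0.18 with a standard error of 0.20 (adjusted p = 0.999), and the 95% interval ran from -0.72 to 0.36. It was -0.29 without library 2 and -0.08 without library 3. Sox21 relative to Sox2 was 0.187, 0.152 and 0.147 in the knockdown libraries and 0.222 in the control. Sox14, a SoxB2 gene of certain interneurons, is listed at 0 in knockdown libraries 1 and 2, at 0.0852 FPKM in library 3 and at 0.0414 FPKM in the control. The value in library 3 was 2.06 times that of the control, which is 2.00 times the worth of 1 read between these libraries. Such values stand for very few reads, Cuffdiff did not test the gene, and no fold change is drawn from it. Sox21 lies at chr14:118632458-118636252 and Sox14 at chr9:99774535-99776589.

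Among the SoxC genes, Sox11 and Sox4 stood higher in knockdown library 2. Sox11, an activator of genes of young neurons, had 85.6, 129 and 97.1 FPKM in knockdown libraries 1, 2 and 3, against 82.7 in the control. All 3 knockdown libraries were above the control, at 103%, 156% and 117% of it. It was the 1 member with a mark: the authors' deposited table for library 2 marked it with a q-value of 0.0115, in a table that marked 3.23% of its tested features as higher. In the other 2 tables its q-values were 0.933 and 0.909. The mean was 104 ± 22.6 FPKM (SD, n = 3), and by limma the log2 ratio was 0.30 with a standard error of 0.26 (adjusted p = 0.999). That log2 ratio was 0.14 without library 2 and 0.43 without library 1.

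Sox4, which shares the longest identical run with Sox11 and acts on the same kind of neuronal genes, had 78.7, 117 and 79.9 FPKM in knockdown libraries 1, 2 and 3, against 79.1 in the control. Libraries 1 and 3 were within 1% of the control, and library 2 was at 148% of it. The log2 ratio was 0.19 in limma with a standard error of 0.27 (adjusted p = 0.999), and it was 0.0034 without library 2, against 0.27 to 0.29 when either other library was left out. Sox12, the SoxC protein with the weakest activating power, had 25.7, 27.7 and 24.0 FPKM, against 28.4 in the control. All 3 knockdown libraries were below the control, library 2 by the least. Its log2 ratio by limma was -0.13 with a standard error of 0.15 (adjusted p = 0.999), with -0.18 without library 2 and -0.09 without library 3. Sox12 relative to Sox11 was 0.300, 0.214 and 0.247 in the knockdown libraries and 0.343 in the control, whereas Sox4 relative to Sox11 was 0.920, 0.904 and 0.822 against 0.956. The loci are chr12:28019133-28027583 for Sox11, chr13:29042599-29045551 for Sox4 and chr2:152219348-152223782 for Sox12. The files give Sox4 a span of 2953 bases, against a transcript of 4795 bases in GENCODE M21, and FPKM depends on the length used.

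By level the 8 genes fell into 5 tiers that held in every library. Sox2 was first in all 4. Sox11, Sox4 and Sox3 followed, with 82.7, 79.1 and 82.5 FPKM in the control and overlapping values across knockdown libraries, so their order among themselves is not resolved. Sox1 came next, below each of these in every library, though its 63.8 FPKM in knockdown library 1 was close to the 66.6 FPKM of Sox3 there. Sox21 and Sox12 overlapped with each other, and Sox14 was last. FPKM is a level per length, so the order compares genes on 1 scale, within the limit that the annotation sets.

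Summed over the subgroups, the SoxB1 genes had 270, 365 and 269 FPKM in knockdown libraries 1, 2 and 3, against 281 in the control. The SoxC genes had 190, 274 and 201 FPKM against 190 in the control, and the SoxB2 genes 26.1, 30.7 and 22.8 FPKM against 29.9. Both of the larger sums were near the control in libraries 1 and 3 and above it in library 2. The mean log2 ratio of the sum was 0.09 ± 0.25 for SoxB1, 0.20 ± 0.28 for SoxC and -0.19 ± 0.22 for SoxB2 (SD, n = 3 each). In each case the value differed from 0 by less than the spread between knockdown libraries. Leaving out 1 library moved it to between -0.06 (without library 2) and 0.16 (without library 1 or 3) for SoxB1. For SoxC it lay between 0.04 (without library 2) and 0.30 (without library 1), and for SoxB2 between -0.30 (without library 2) and -0.08 (without library 3). The ratio of SoxC to SoxB1 was steadier, at 0.703, 0.749 and 0.747 in the knockdown libraries and 0.676 in the control, with a mean of 0.733 ± 0.0260 (SD, n = 3).

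**Figure D3:**
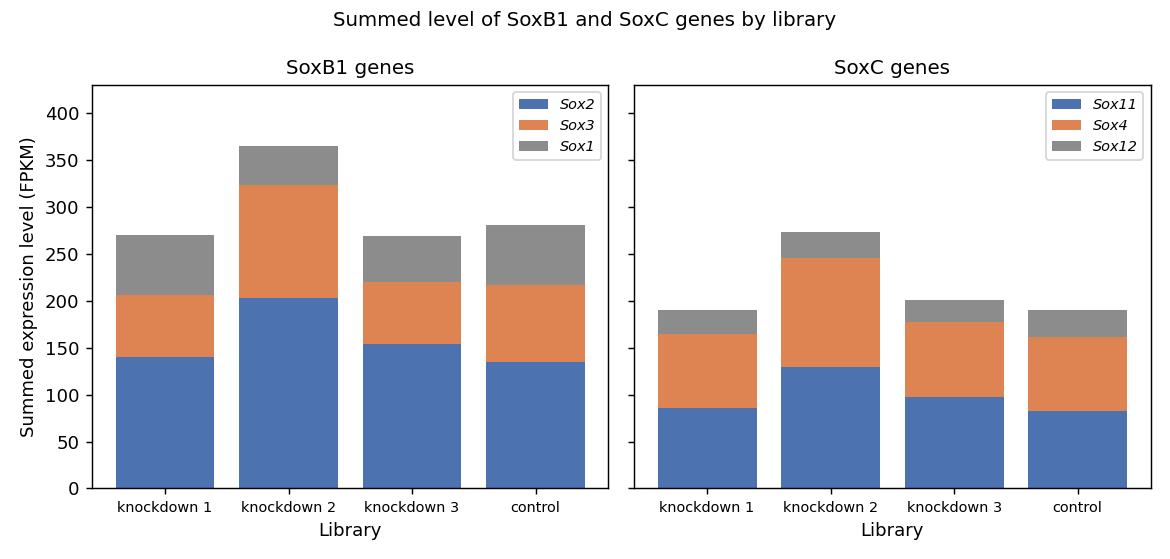
Summed FPKM of the SoxB1 genes and of the SoxC genes in each knockdown library and the control, stacked by gene, with 1 library per bar. The bars of knockdown library 2 are the tallest, at 365 and 274 FPKM, and the Sox1 segment is smaller there than in the other libraries.

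The size of the shift in library 2 can be set against all genes. With a bound of 1.4 times the control, chosen after the levels had been seen, 4 of the 7 Sox genes in the fit were at or above it in library 2, against 13.3% of all fitted features. None was in library 1 (3.63% of features) or in library 3 (13.6%). The 4 genes were Sox3, nearest to the bound at 146%, Sox4, Sox2 and Sox11, and the next member below it was Sox21 at 103%. Ratios at least as high as that of Sox11 were reached by 6.89% of fitted features in library 2, and 94.0% of features had a ratio at least as high as that of Sox1. The median log2 ratio of the 7 genes was -0.01, 0.54 and -0.23 in libraries 1, 2 and 3. These counts describe 1 library against 1 library and carry no test of the knockdown.

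The precision differs between tables. The standard error of the log2 ratio that the deposited statistic implies had a median over the 7 genes of 0.10 in library 1, 0.22 in library 2 and 0.21 in library 3. Sox2, Sox3, Sox4 and Sox11 in library 2 had deposited test statistics of 2.67, 2.44, 2.58 and 3.54, which count such errors. Downward, Sox1 had -2.69 in library 2 and Sox3 had -3.20 in library 1. The Cuffdiff error covers the model of 2 libraries, not the difference between cultures.

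None of the 12 other Sox genes listed, from groups A and D to H, met the study's rule. Of these, 7 could be called, and the rule called 2.88% of all features with enough tests, so 0 is no trait of Sox genes. Sox13, a SoxD gene, was the most abundant of them, with 24.9, 25.9 and 25.8 FPKM in the knockdown libraries against 27.7 in the control. Sox7, a SoxF gene of endoderm and vessels, had 15.5, 14.4 and 23.4 FPKM against 16.9. Sox17, a SoxF factor of definitive endoderm, was above the control in all 3 libraries, with 5.01, 5.08 and 5.93 FPKM against 3.51. Sox8, a SoxE gene, was below the control in all 3, with 0.437, 0.713 and 0.395 FPKM against 1.04, and it is named after its values were seen. Sox9, a SoxE gene of neural stem cells and glia, had 2.91, 4.35 and 3.76 FPKM against 2.68. Sox6 and Sox5 of the SoxD group stayed under 4 FPKM, with 3.20, 3.44 and 3.71 against 3.18 for Sox6 and 1.10, 2.26 and 1.36 against 1.10 for Sox5.

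Some partner factors of SoxB1 proteins were called where the SoxB1 genes were not. Of 10 partner factors 2 rose and 1 fell, and whether they differ from the SoxB1 genes was not tested. Pou3f3, a neural POU factor, rose, with 6.30, 54.9 and 29.9 FPKM in knockdown libraries 1, 2 and 3, against 7.18 in the control. Pou5f1, the Oct4 gene, rose as well, with 22.4, 45.2 and 69.5 FPKM against 16.9. Pou3f1 fell, with 5.28, 1.32 and 0.955 FPKM against 5.57. Among 11 progenitor genes that SoxB1 proteins are known to bind, Vim, an intermediate filament of progenitors, rose and 10 were not called. Vim had 376, 1005 and 958 FPKM against 388 in the control. The median log2 ratio of the 10 fitted genes of that list was 0.04, 0.41 and 0.16.

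Of 11 pluripotency genes that Sox2 is known to control, 7 rose and 0 fell. Esrrb had 0.415, 6.83 and 12.6 FPKM in the knockdown libraries against 0.417 in the control, Tdgf1 had 1.68, 14.6 and 35.5 FPKM against 1.42, and Zfp42 had 4.68, 33.0 and 58.0 FPKM against 3.74. The median log2 ratio of the 11 was 0.15, 1.37 and 2.02 in libraries 1, 2 and 3, with the highest in library 3, while Sox2 itself was highest in library 2. Of 4 measured genes tied to SoxC proteins, Tubb3, the neuronal tubulin, rose and Tead2, a transcription factor of the Hippo pathway, fell. Tubb3 had 24.0, 138 and 75.8 FPKM against 22.2, and Tead2 had 146, 146 and 117 FPKM against 179. Dcx, a microtubule protein of migrating neurons, had 0.521, 14.9 and 7.13 FPKM against 0.454. Its mark stood in the table of library 2, and in the other 2 tables Cuffdiff gave no test of it for lack of data, so it could not be called. Stmn2, also on this list, had 75.4, 44.6 and 40.5 FPKM against 66.9. Its lower level was marked in library 3 only, so it was not called. Dcx and Stmn2 are named after their values were seen. Proneural factors rose in 3 of 7 cases, among them Neurog1 and Neurod4. Neurog1 had 0.104, 14.3 and 5.61 FPKM against 0.524, and Neurod4 had 0.583, 4.48 and 2.36 FPKM against 0.390. Except for Tead2, which the tables of libraries 1 and 3 marked, each list call named here rests on libraries 2 and 3 and was absent without library 2 or without library 3. Over all features 1.98% rose and 0.905% fell.

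**Figure D4:**
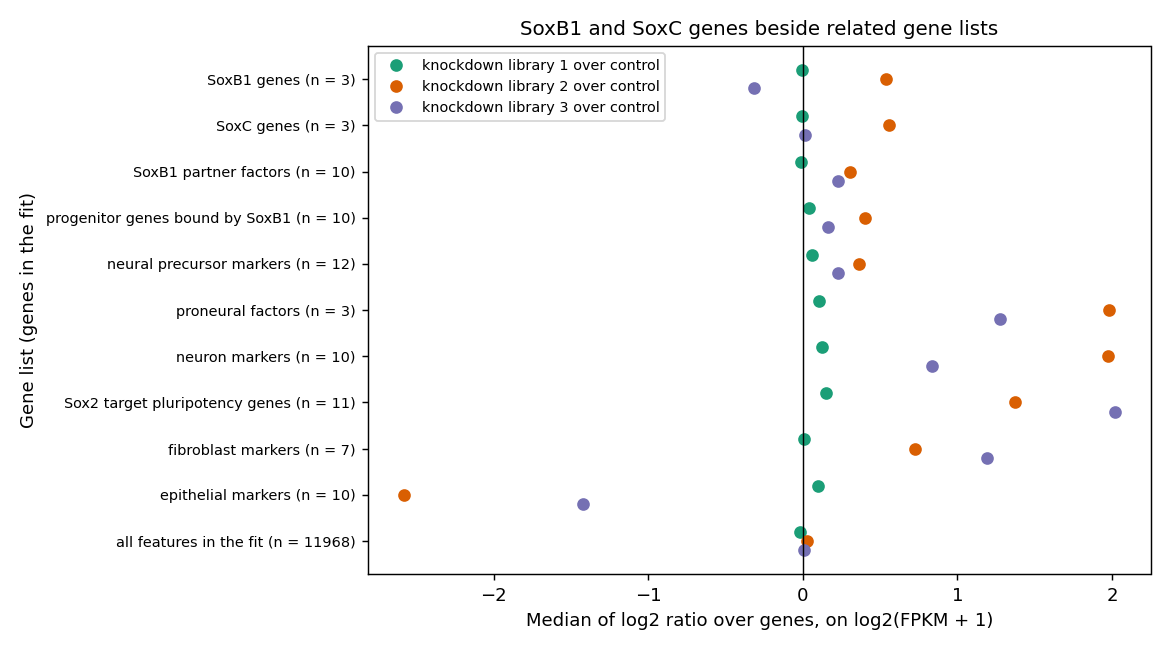
Median log2 ratio, on log2(FPKM + 1), of the SoxB1 and SoxC genes and of related lists in each knockdown library over the control, with all fitted features in the last row. The Sox medians in library 2 are 0.54 and 0.56, against 1.97 for neuron markers, 1.37 for Sox2 target pluripotency genes and -2.58 for epithelial markers.

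Markers of other cell types moved in the same libraries. For scale, the study's rule called 1.98% of all features with enough tests as higher and 0.905% as lower. Of 11 measured neuron markers 4 rose and 0 fell, among them Nefm, with 17.6, 198 and 74.2 FPKM against 15.6, and Elavl4, with 2.66, 15.8 and 8.09 FPKM against 2.07. The 7 not called went both ways, with Dcx marked higher in library 2 and Stmn2 marked lower in library 3. Ina, with 2.75, 26.1 and 3.84 FPKM against 5.56, was marked lower in library 1 and higher in library 2. The summed level of the 11 neuron markers was 190, 625 and 310 FPKM in knockdown libraries 1, 2 and 3, against 182 in the control. This sum was highest in library 2, as were Sox2, Sox3, Sox4 and Sox11. Of 10 pluripotent markers 7 rose and 0 fell, with sums of 84.5, 336 and 550 FPKM against 62.2, and Dppa5a had 32.8, 184 and 286 FPKM against 19.9. Of 10 epithelial markers 9 fell and 0 rose, with sums of 549, 61.0 and 180 FPKM against 492. Cdh1 had 74.2, 6.63 and 18.8 FPKM against 65.2, Cldn4 22.3, 0.991 and 2.94 FPKM against 22.7, and Cldn7 8.20, 0.421 and 0.931 FPKM against 7.63. Of 10 fibroblast markers 2 rose, Postn and Lox, with sums of 35.3, 54.1 and 81.0 FPKM against 32.7, and Lum is listed at 0 in library 3 and in the control. Postn had 2.71, 4.74 and 6.55 FPKM against 1.23, and Lox had 4.54, 9.41 and 16.1 FPKM against 3.56. Of 12 neural precursor markers Vim rose and 11 were not called, with sums of 879, 1604 and 1467 FPKM against 876. Vim alone made up 376, 1005 and 958 FPKM of these sums against 388, so most of their rise was Vim. The median log2 ratio of the 12 markers was 0.06, 0.36 and 0.23. These lists overlap with those above. Pou5f1, Zfp42, Esrrb and Tdgf1 also stand among the Sox2 targets, Tubb3 among the SoxC targets and Vim among the progenitor genes. Pou5f1 is a partner factor as well, so the counts are not separate results. Without library 2 or without library 3, 0 members of each of these 5 marker lists were called. The part of these cell types in the Sox levels was not tested.

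Genes with the profile most like that of 6 members were sought among the 11968 fitted features, by the Euclidean distance over the 3 log2 ratios to the control. The nearest to Sox2 were Pigh and Plch1, at distances of 0.02 and 0.02. Next to Sox1 stood Gria4 and Ifitm2 (0.01 and 0.02), and next to Sox3, the least matched member, Isoc2a and Nkd1 (0.09 and 0.13). Sox11 was nearest to Pfn2 and Lyrm1 (0.06 and 0.06), Sox4 to Smpd2 and Grk5 (0.02 and 0.06), and Sox12 to Tada2a and Tbc1d5 (0.01 and 0.02). None of these neighbours was itself a SoxB or SoxC gene. With only 3 ratios, all against 1 control, such neighbours are a description of level changes and nothing more.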

How the data were processed

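Expression was measured by RNA sequencing in 3 knockdown libraries and 1 control library. Per the submitters' processing notes, TopHat, Cufflinks and Cuffdiff were used with the mouse build mm9. Their versions, the read length and the use of strand are not stated in what was at hand. Each of 3 tables sets 1 knockdown library against the same control, per the file headers, so the 3 comparisons share it. The authors deposited FPKM for both libraries, a Cuffdiff p-value, and 3 columns treated as a score: the q-value, which passes 1 in places, the test statistic, and the natural log ratio, which has the control on top. In every row the deposited mark of significance stands exactly where the q-value is under 0.05 and the test ran. The shorter tables of marked features were not used. Depth in reads is unknown.

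Ratios were formed within a table. The study's rule, given in the series' design text, calls a feature marked in at least 2 of 3 tables in 1 direction. A limma fit (3.58.1, R 4.3.3) with a variance prior that follows the mean used log2(FPKM + 1) of 11968 features tested in all tables with a mean of at least 1 FPKM, with Benjamini-Hochberg adjustment at 0.05. It has 2 residual degrees of freedom, and the lone control is assumed to vary as the knockdown libraries do. Standard errors within a table are the log ratio divided by the deposited test statistic. Named genes are the 8 members, Gmnn, other Sox genes of at least 1 FPKM, overlapping transcripts, up to 3 called genes (or the 2 most abundant) per list, and the 2 nearest profiles per member. A few genes that this rule names are not reported here. Nes, Pax6, Hes5, Prom1, Dcx, Stmn2, Ina, Sox8 and Lum were named after their values were seen. The members and lists were chosen with earlier results of these data known. Start positions in the files count from 0 and are given here from 1. Alternatives were other pseudocounts, no filter, median centring, no trend, other call rules and leaving out each library.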

Additional observations from a re-analysis of the deposited data

How the results depend on the processing

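The count of Sox genes meeting the study's rule was 0. It stayed 0 with a log2 ratio of at least 1 in at least 2 tables and with 1.4-fold in at least 2 tables. Neither of these fold rules needed a mark, and the 1.4-fold bound was chosen after seeing the data. The count was 1, Sox11, when 1 table sufficed. It was also 0 with all 3 tables required, with a q-value under 0.01 and with each library left out. Those settings could not add a call, because Sox11 was the only member marked, and in 1 table only. The count past the limma threshold was 0 under pseudocounts of 0.1 and 0.5, without a filter, with median centring, without a trend and with each library left out. Adjusted p-values over these 56 fits of single genes were between 0.449 and 1. Of the 56, 54 kept the sign of the log2 ratio and 2 did not: for Sox3, main value -0.03, it lay between -0.31 and 0.12 when a library was left out (0.11 without library 1, 0.12 without library 3). The cause was not tested. Over all features, 286 rose and 131 fell, against 758 and 510 when 1 table sufficed, 3 and 14 with all 3 tables, 161 and 93 with a q-value under 0.01, 1861 and 1235 with the 1.4-fold bound, 12 and 23 without library 2, and 12 and 22 without library 3. The limma counts over all features, 3 higher and 12 lower, were 3 and 6 with a pseudocount of 0.1, 0 and 4 without a filter, 0 and 7 without a trend, 4 and 24 without library 1, 3 and 7 without library 2, and 1 and 5 without library 3. Summed levels changed sign in 1 case, SoxB1 without library 2 (-0.06). No paired analysis was possible because the control is 1 library and shares only 1 replicate number with the knockdown libraries. Without control replicates, the knockdown and variation between cultures cannot be told apart for the differences seen in 1 library.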
